A study of Mus musculus with 24 samples.

Results

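The MYC and MAX network was followed through normal (N) and tumour (KP) mouse pancreatic organoids, before and after inhibition of the RNA helicase eIF4A. Its 8 members were taken by name: Myc, its dimer partner Max, and the genes Mxd1, Mxd3, Mxd4, Mxi1, Mnt and Mga, whose proteins compete for MAX. Of these, 7 had an entry of their own among the 19895 entries of the deposited table, and all 7 were among the 11438 genes that could be tested. Mxd3 was counted in 1 entry together with Prelid1, so its own level could not be read, and the 7 other members are described below.

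N organoids were grown from ducts of wildtype C57Bl/6J mice. KP organoids came from tumours of mice with 1 LSL-R172H allele of Trp53 and a further mutant allele, both switched on in the pancreatic epithelium by Cre under the Pdx1 promoter (Pdx1-Cre). Either type was kept without EGF and without N-acetylcysteine, then treated for 1 h with vehicle (DMSO) or with 10 nM CR-31, a rocaglate that clamps eIF4A onto purine-rich RNA. From each lysate the mRNA bound by 3 or more ribosomes (polysome mRNA) and the total mRNA were sequenced, with 3 replicates in each of the 8 groups and 24 libraries in all. The sample labels do not say whether the replicates were separate cultures or animals, so the p-values measure the spread between these samples, which may be technical.

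MYC is a transcription factor of the basic helix-loop-helix zipper family that binds DNA only as a dimer with MAX, at E-boxes such as CACGTG, and there it raises transcription of genes for ribosome biogenesis, nucleotide synthesis and cell growth. The MXD proteins, MXI1, MNT and MGA also dimerise with MAX and occupy the same sites. MXD proteins, MXI1 and MNT recruit the SIN3 and histone deacetylase corepressor, and MGA acts within a Polycomb complex named PRC1.6. In pancreatic tumours Myc acts downstream of growth factor signalling, and both its mRNA and its protein are short-lived.

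The deposited counts of uniquely mapped reads ranged from 47308461 to 267463046 per library. The members had between 278 reads (lowest library for Mga) and 40305 reads (highest library for Myc), so the spread between replicates was wider than counting error. Of the marker genes of duct epithelium, all 10 were detected in each library (8327 to 14160 summed CPM, counts scaled to the library size, in N, 5730 to 10268 in KP). Summed markers of other cell types were at most 4.78 CPM for acinar, 0.171 for endocrine, 1.97 for fibroblast and 0.313 for endothelial cells, and Cpa1, Ins1, Ins2, Gcg, Ppy, Col3a1 and Lum were at 0 everywhere. Immune markers summed to 4.37 to 25.3 CPM in N and 2.12 to 16 CPM in KP, with Cd68 up to 24.9 CPM. Their part in the results was not tested.

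The libraries of N replicate 3 went against their labels. As a deviation from the mean of N libraries, the polysome library labelled N vehicle 3 followed the total library of N CR-31 3 (r = 0.81 across genes) more closely than the total library of its own lysate (r = 0.23), and the polysome library labelled N CR-31 3 followed the total library of N vehicle 3 (r = 0.67) more closely than its own (r = 0.21). The difference between polysome and total mRNA of these 2 lysates was negatively correlated across genes (r = -0.56). With the mean of the other lysates of their type they correlated at 0.21 and 0.27, whereas the other 4 N lysates each correlated at 0.81 to 0.89. Among the KP lysates, KP CR-31 replicate 1 had the lowest such value (0.40), against 0.62 to 0.83 in the others. Genes are not independent replicates, and the cause was not tested. Many of the tests that rest on the libraries of N replicate 3 are therefore also given without them, and levels in N by replicate.

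The members' genes lie on 8 different chromosomes of GRCm38. Myc spans chr15:61985391-61990374 (forward strand, 3 exons), Max chr12:76937269-76962201 (reverse), Mxd1 chr6:86647042-86669161 (reverse), Mxd3 chr13:55325168-55329823 (reverse), Mxd4 chr5:34173883-34187720 (reverse), Mxi1 chr19:53310518-53375810 (forward), Mnt chr11:74830920-74845725 (forward) and Mga chr2:119897228-119969581 (forward, 24 exons). The E-box CACGTG, which reads the same on both strands, was searched in RefSeq promoter windows of GRCm38 reaching from 250 nt before to 50 nt after each start. Of 32851 such windows of 300 nt, 7.15% held it. Among the members with a window, Max, Mxd4 and Mnt held 1 copy each, and no window of Mxd1, Mxd3, Mxi1 or Mga did. These 3 stretches of 30 nt are shown because they place the recognition sequence of the network beside 3 of its own genes, with the E-box in capitals and each read along the strand of its gene. Distances run from the first base of the E-box to the RefSeq start, which can differ from the GENCODE gene end given above, and the E-box of Max spans its RefSeq start.
Max (chr12:76962234-76962263, E-box from 3 nt before the start): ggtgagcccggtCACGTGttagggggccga
Mxd4 (chr5:34187912-34187941, E-box from 219 nt before the start): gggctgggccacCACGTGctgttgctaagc
Mnt (chr11:74830789-74830818, E-box from 123 nt before the start): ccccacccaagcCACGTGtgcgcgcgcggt
The match is a description of these letters, and binding was not measured here.

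In the GENCODE annotation the 5′ untranslated region (UTR) of Myc was 531 nt long, above 90.7% of 17496 genes with a median of 179 nt, and that of Mnt had 409 nt. The GC content of the Myc 5′ UTR (60.6%) was close to the median of 60.3%, whereas the 5′ UTR of Mxd4 had 83.2% GC (above 98.2% of genes) and that of Mxi1 79.1%. The purine motifs AGAGAG or GAGAGA, searched on the mRNA strand, occurred once in the 5′ UTR of Myc and in that of no other member, against 16.5% of all 5′ UTRs. The 3′ UTR of Myc held 2 copies of ATTTA, a pentamer found in many short-lived mRNAs, those of Mxd1 and Mga 5 each, that of Mxi1 4, those of Max and Mnt 1 each and those of Mxd3 and Mxd4 none.

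Compared per length, on the RPKM scale (reads scaled by the length of the gene and the size of the library), Myc and Max were the most abundant members. Myc had a median of 49.3 RPKM over the 24 libraries and was highest in 18 of them, Mxd4 was highest in 4 and Max in 2. Max followed with a median of 32.5 RPKM and Mxd4 with 24.0. Mxi1 (9.59 RPKM) and Mnt (8.35 RPKM) held ranks 3 to 5, and these neighbours changed places between libraries. Mxd1 (2.96 RPKM) was 6th and Mga (0.575 RPKM) 7th in each library. The place of Mxd4 depends on the length behind its RPKM, which was 1179 nt against 3872 nt in its principal GENCODE transcript. For Mxi1 the lengths differed the other way, with a median of 5270 nt against 2340 nt. The place of Mxi1 is therefore uncertain too.

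Levels within a group varied most for Mxd4 and Myc and least for Max. The mean coefficient of variation of CPM over the 8 groups was 38.1% for Mxd4, 37.7% for Myc, 29.9% for Mga, 24.1% for Mxi1, 19.2% for Mxd1, 15.3% for Mnt and 11.9% for Max. Over all libraries Max stayed between 52.8 and 83.9 CPM, a range of 1.59-fold, whereas Myc ranged over 5.66-fold and Mga over 5.44-fold. Mxd1 stayed between 9.34 and 17.5 CPM and Mxi1 between 34.9 and 82.8 CPM.

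**Figure D1:**
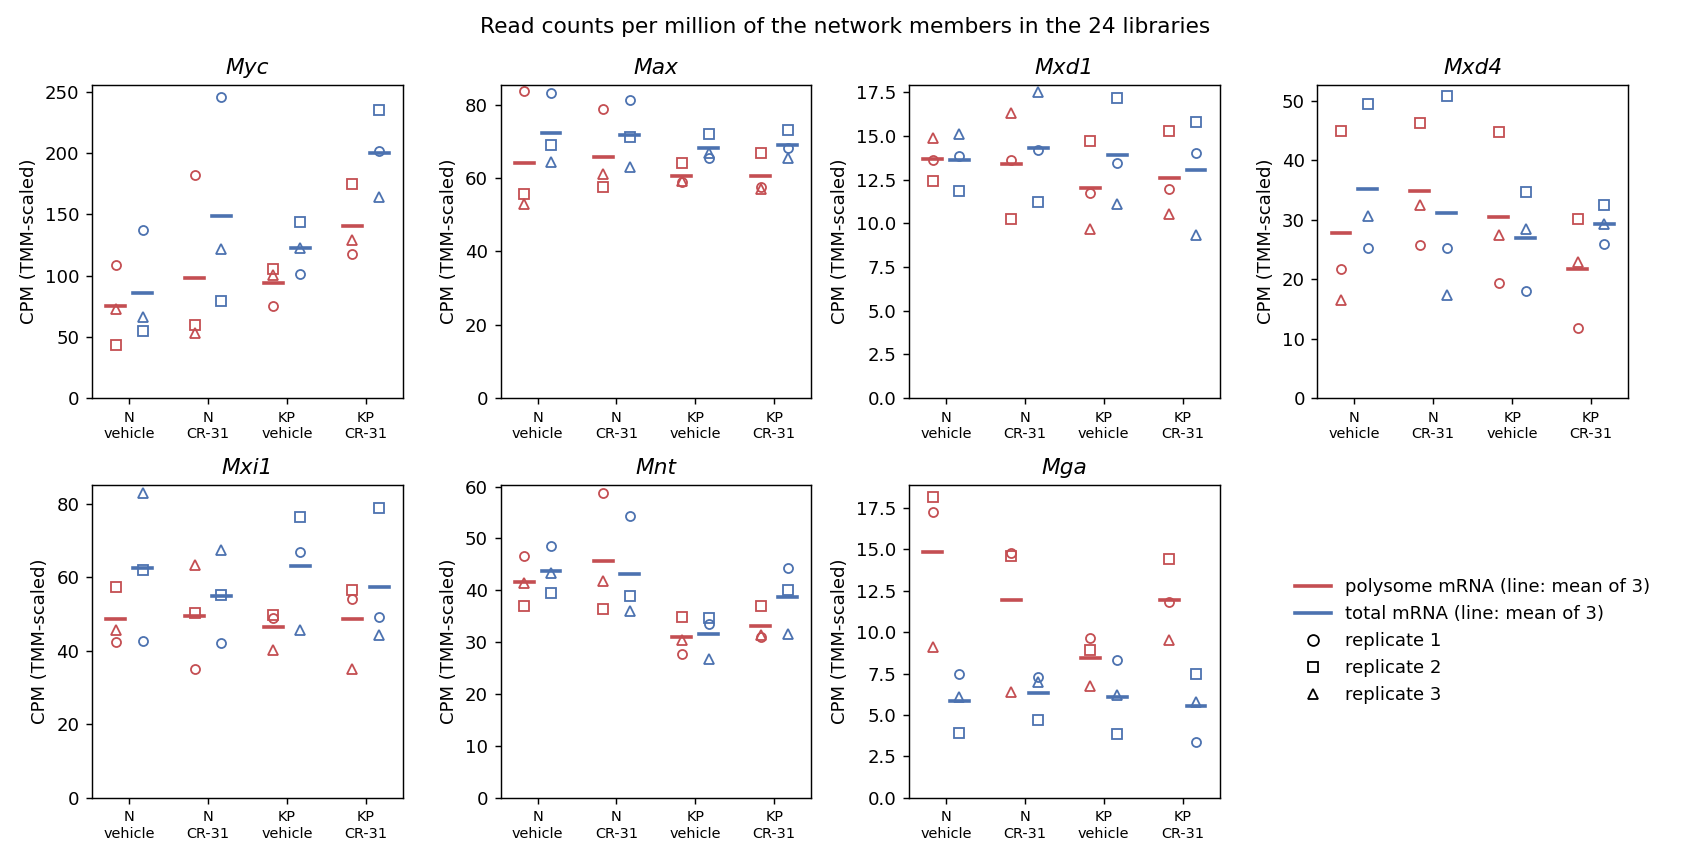
Levels of the 7 measured members in CPM (y axis) in each of the 24 libraries, by group (x axis), with polysome and total mRNA in different colours, one symbol per replicate and a line at the mean of 3. Max stays between 52.8 and 83.9 CPM in all libraries, while Myc is highest in N replicate 1 of each N group.

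Relative to Max, Myc mRNA was the more variable side of the dimer. In polysome mRNA the ratio of Myc to Max RPKM was 0.951 ± 0.269 (SD, n = 3) in N vehicle, 1.16 ± 0.649 in N CR-31, 1.27 ± 0.188 in KP vehicle and 1.90 ± 0.236 in KP CR-31. In total mRNA it was 0.952 ± 0.368, 1.67 ± 0.788, 1.48 ± 0.185 and 2.39 ± 0.30 in the same order. The 3 KP CR-31 lysates (2.06 to 2.66 in total mRNA) all lay above the 3 KP vehicle lysates (1.28 to 1.64), whereas the N groups overlapped. Of the N ratios, replicates 1 and 2 had 1.07 and 0.643 under vehicle and 1.91 and 0.854 under CR-31 in polysome mRNA, and 1.36 and 0.650 against 2.5 and 0.924 in total mRNA.

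Against the summed RPKM of Mxd1, Mxd4, Mxi1, Mnt and Mga, Myc stood at 0.895 ± 0.144 in KP vehicle polysome mRNA and at 1.53 ± 0.0581 after CR-31 (SD, n = 3). In N the same polysome ratios were 0.752 ± 0.417 and 0.835 ± 0.724. In total mRNA the ratio was 0.719 ± 0.516 in N vehicle, 1.36 ± 0.889 in N CR-31, 1.14 ± 0.0838 in KP vehicle and 1.77 ± 0.151 in KP CR-31. Myc thus made up 22.8% to 69.5% of the summed RPKM of Myc and these 5 genes, and Max amounted to 0.241 to 0.490 times that sum, which leaves out Mycn and Mycl. Mxd4 supplied 32.7% to 66.3% of the RPKM of the 5 genes. With Mxd4 at the 3872 nt of its principal transcript, the ratio of Myc to them was 1.48 ± 0.229 in KP vehicle and 2.27 ± 0.180 in KP CR-31 polysome mRNA, and 1.47 to 1.65 times the value above over the 8 groups. The shorter principal transcript of Mxi1 would lower the ratio instead, and that case was not computed. With the RPKM as deposited, N replicates 1 and 2 alone had 1.11 and 0.295 under vehicle and 1.67 and 0.414 under CR-31 in polysome mRNA, and 1.31 and 0.348 against 2.28 and 0.511 in total mRNA. These ratios are descriptions without a test, and they hold for mRNA, not for protein.

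**Figure D2:**
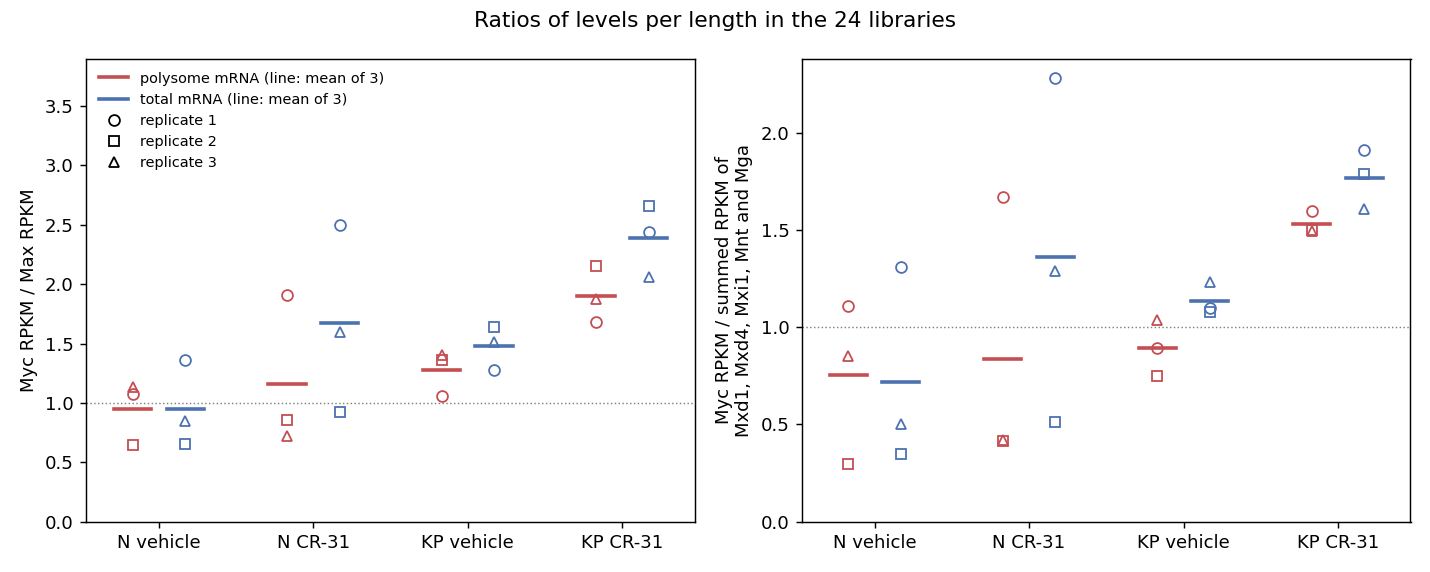
Ratio of Myc RPKM to Max RPKM (left) and to the summed RPKM of Mxd1, Mxd4, Mxi1, Mnt and Mga (right) in each library, by group, with a line at the mean of 3. KP CR-31 lies above KP vehicle in both fractions, and the N groups spread from 0.295 to 2.28 in the right panel.

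The first comparison asked how the network differed between tumour and normal organoids under vehicle. Mnt, the broadly expressed antagonist of MYC, was lower in KP in both fractions, Mga was lower in polysome mRNA, and no difference was called for Myc, Max, Mxd1, Mxd4 or Mxi1. In polysome mRNA, edgeR's quasi-likelihood test called 43.1% of all genes at an adjusted p under 0.25, the threshold of the study (20.9% higher and 22.2% lower in KP), and 2 of the 7 members. In total mRNA it called 28.5% of genes (13.1% higher, 15.4% lower) and 1 member. For calls in either direction the members' share stood below the background, but all of these calls were lower in KP, where 2 of 7 and 1 of 7 stand beside 22.2% and 15.4%. Lanes here were inferred from identifiers that libraries share, which the sample titles do not name as lanes. No lane so taken held both organoid types, so type and lane cannot be told apart. In bulk organoids fewer cells that express a gene and less of its mRNA per cell cannot be told apart either.

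Mnt had 46.6, 37 and 41.5 CPM in the polysome mRNA of N vehicle replicates 1 to 3 and 27.7, 34.9 and 30.4 CPM in KP vehicle. Every KP value was below every N value, a separation that 33.8% of all genes showed. The log2 fold change was -0.43 ± 0.21 (SE; edgeR adjusted p = 0.185). In total mRNA Mnt had 48.6, 39.5 and 43.4 CPM in N vehicle and 33.4, 34.7 and 26.8 CPM in KP vehicle, again without overlap (32.4% of all genes), with a log2 fold change of -0.47 ± 0.21 (edgeR adjusted p = 0.193). Without N replicate 3 the polysome value was -0.43 (adjusted p = 0.182, 52.6% of genes called) and the total value -0.46, which was no longer called (adjusted p = 0.315, 19.3% of genes called).

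Mga, a very large protein that carries both a T-box and a helix-loop-helix domain, had 17.3, 18.2 and 9.10 CPM in the polysome mRNA of N vehicle and 9.64, 8.91 and 6.76 CPM in KP vehicle. N replicate 3 overlapped with KP. The log2 fold change was -0.81 ± 0.36 (SE; edgeR adjusted p = 0.143) and reached -1.07 ± 0.24 without N replicate 3 (adjusted p = 0.0143). In total mRNA Mga had 7.47, 3.93 and 6.11 CPM in N vehicle and 8.30, 3.84 and 6.20 CPM in KP vehicle, and the estimate was 0.07 ± 0.39 (adjusted p = 0.942). The difference between fractions, tested as the interaction of fraction and type, was -0.88 ± 0.51 (adjusted p = 0.485), and without N replicate 3 it was -1.24 (adjusted p = 0.128), when 34.8% of genes were called, Mga and Mxi1 (-0.40, adjusted p = 0.238) among them. The calls of Mnt and Mga were also lost when single other libraries were left out, which the closing section gives.

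Myc itself had 109, 43.3 and 72.8 CPM in the polysome mRNA of N vehicle and 75.5, 106 and 100 CPM in KP vehicle, so the KP values lay within the range of N. The log2 fold changes were 0.32 ± 0.45 in polysome mRNA (SE; 95% interval -0.65 to 1.30; edgeR adjusted p = 0.657) and 0.51 ± 0.41 in total mRNA (-0.38 to 1.41; adjusted p = 0.484). N replicate 1 had the highest Myc of the N lysates in each group. Without N replicate 1 (both lysates) the total value was 1.03 (adjusted p = 0.032) and the polysome value 0.65 (adjusted p = 0.139), so 1 replicate decided whether Myc was called. The values without N replicate 3 were 0.30 in polysome (adjusted p = 0.676) and 0.37 in total mRNA (adjusted p = 0.731).

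**Figure D3:**
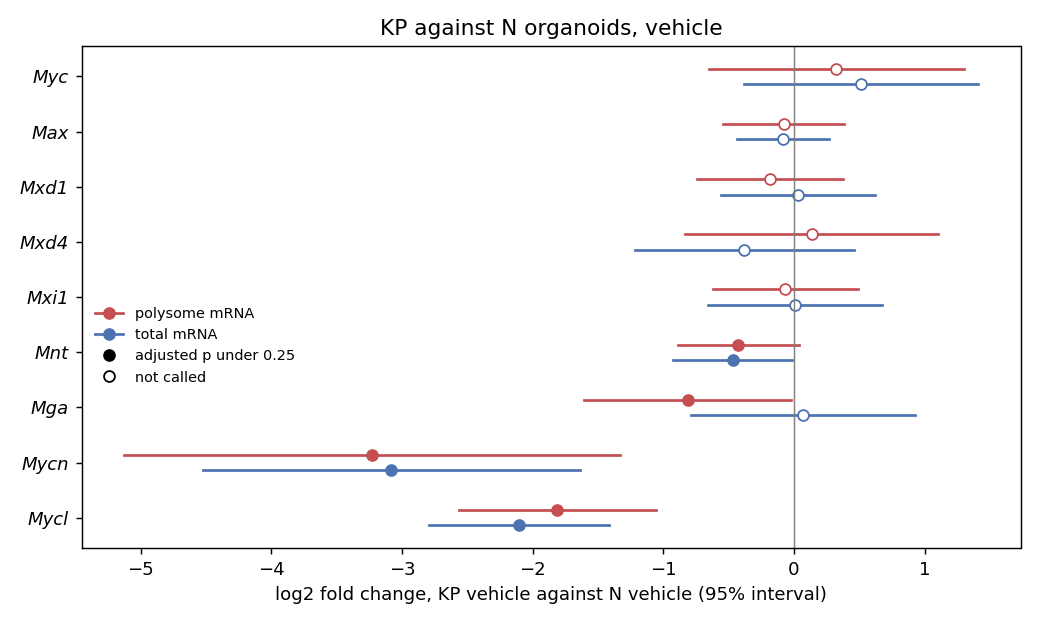
Log2 fold change of KP against N under vehicle for the 7 members and the related genes Mycn and Mycl (y axis), with 95% intervals, in polysome and total mRNA. Filled points had an edgeR adjusted p under 0.25. Mycn and Mycl fell furthest in both fractions, and among the members Mnt was called in both fractions and Mga in polysome mRNA.

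The paralogues of Myc had larger fold changes than Myc, and both were called. Mycn, which works in progenitor cells, had 9.98, 10.2 and 9.21 CPM in N vehicle polysome mRNA and 0.275, 0.605 and 2.28 CPM in KP vehicle, a log2 fold change of -3.23 ± 0.87 (SE; edgeR adjusted p = 0.0300). Mycl had 23.2, 34.2 and 14.5 CPM in N and 5.08, 8.99 and 6.41 CPM in KP (-1.81 ± 0.35, adjusted p = 0.00797). Neither gene overlapped between the types. In total mRNA the values were -3.08 ± 0.66 (adjusted p = 0.0168) and -2.11 ± 0.32 (adjusted p = 0.00369). Without N replicate 3 both stayed lower (Mycn -3.28 and Mycl -2.07 in polysome mRNA). Mlxip, a glucose-sensing relative that pairs with MLX in place of MAX, was lower in polysome mRNA (-0.60 ± 0.32, adjusted p = 0.217, and -0.94 without N replicate 3), and Mlxipl had 0.23 ± 0.53 (adjusted p = 0.807). Mlx itself shared an entry with Psmc3ip.

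Under CR-31 the same comparison of types called 25% of genes in polysome mRNA (13.8% lower in KP) and 1 of 7 members. That member was Mnt, with 58.8, 36.4 and 41.8 CPM in N CR-31 and 31.0, 36.9 and 31.5 CPM in KP CR-31, a log2 fold change of -0.46 ± 0.21 (SE; edgeR adjusted p = 0.220; -0.53, adjusted p = 0.161 and 34.7% of genes called without N replicate 3). The groups overlapped, and without N CR-31 replicate 1, the highest library, Mnt had -0.25 (adjusted p = 0.515). Leaving out any 1 of 5 of the 12 libraries ended this call. In total mRNA 39.9% of genes and none of the members were called by edgeR or by DESeq2, and none had an unadjusted p under 0.05 (27.2% of genes and again none without N replicate 3). Mga, lower in KP under vehicle, stood at 0.00 ± 0.36 in polysome mRNA under CR-31 (edgeR adjusted p = 0.999). It had 14.8, 14.6 and 6.40 CPM in N CR-31 and 11.9, 14.4 and 9.55 CPM in KP CR-31. The lowest of these values came from N replicate 3, whose libraries went against their labels. Mycn (-2.86 ± 0.86, adjusted p = 0.0686) and Mycl (-2.15 ± 0.35, adjusted p = 0.00909) were lower in KP polysome mRNA here too.

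The second comparison asked what 1 h of CR-31 did to the network. Myc had a higher CPM in total mRNA in the CR-31 lysate of every pair, and in KP also in polysome mRNA. CPM is a share of each library, so a higher value need not mean a larger amount of mRNA on ribosomes. In N the total levels under vehicle were 137, 54.3 and 65.9 CPM and under CR-31 245, 79.4 and 122 CPM, which is 1.79, 1.46 and 1.85 times the vehicle lysate of the same number. In KP the vehicle levels were 101, 143 and 122 CPM and the CR-31 levels 201, 235 and 164 CPM, or 1.99, 1.64 and 1.34 times. Of all genes, 7.50% were higher in 6 of 6 pairs in total mRNA, and Myc was the only member among them. Without N pair 3 it was again the only member higher in 5 of 5 pairs, as were 9.98% of all genes. With the total labels of that pair exchanged, its Myc value would be 0.541 in place of 1.85 times. The KP groups did not overlap (5.88% of all genes did not), while the N groups did.

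In polysome mRNA Myc in KP went from 75.5, 106 and 100 CPM to 117, 175 and 129 CPM, or 1.56, 1.65 and 1.29 times, with no overlap between the groups (19.5% of all genes). In N it went from 109 to 182 and from 43.3 to 59.6 CPM in pairs 1 and 2, but from 72.8 to 53.3 CPM in pair 3. The direction in N polysome mRNA therefore rested on which lysates were counted. Pairs 1 and 2 gave 1.67 and 1.38 times, and the pair whose libraries went against their labels gave 0.733 times, which with its polysome labels exchanged would be 1.36 times.

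**Figure D4:**
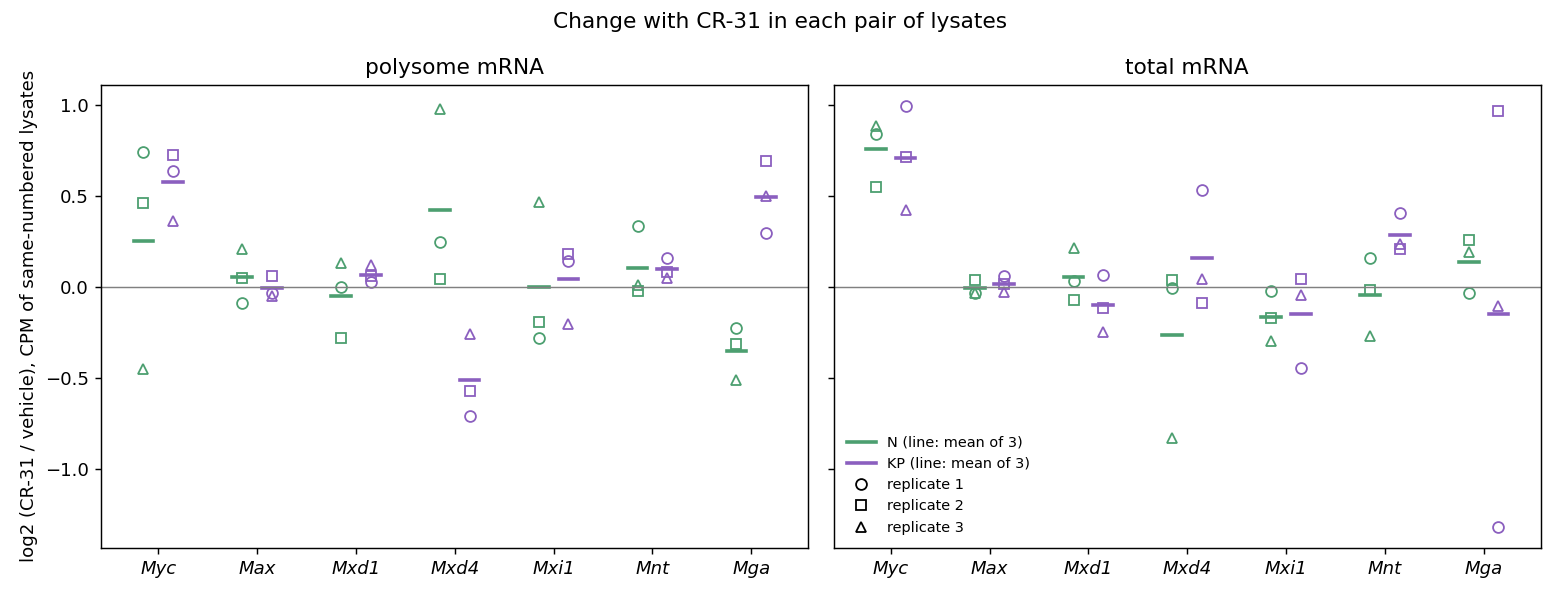
Log2 ratio of CR-31 to vehicle (y axis) within each pair of lysates of the same replicate number, for each member, in N and KP and in polysome and total mRNA. All 6 Myc pairs are above 0 in total mRNA (1.34 to 1.99 times the vehicle value), and Mxd4 and Mga lie on opposite sides of 0 in N and KP polysome mRNA.

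In the comparison of group means none of the members was called, in either type or fraction, and neither was any other gene (0% of 11438 genes in N polysome, N total, KP polysome and KP total mRNA by edgeR). No member had an unadjusted p under 0.05. DESeq2 called none of the members either, and between 0 and 13 genes in all. The log2 fold changes of Myc were 0.80 ± 0.41 (SE) in N total, 0.71 ± 0.41 in KP total, 0.39 ± 0.45 in N polysome and 0.58 ± 0.45 in KP polysome mRNA, with edgeR adjusted p-values above 0.99 for each. Myc had 0.76 in N total and 0.67 in N polysome mRNA without N replicate 3, and again no member was called.

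Lysates of the same number deviated together within a type, so the replicate number was also used as a block, and this changed calls in KP polysome mRNA. There 19.3% of genes were called (8.30% higher and 11.1% lower) and 3 of the 7 members. Myc was higher (0.58 ± 0.22 on the log2 scale, SE; edgeR adjusted p = 0.210), Mga was higher (0.49 ± 0.14, adjusted p = 0.192) and Mxd4 was lower (-0.51 ± 0.19, adjusted p = 0.202). In N polysome mRNA the blocked fit called 0% of genes (unadjusted p under 0.05 for 1 member, Mga). In total mRNA it called 0.0612% of genes in N and 0% in KP, and Myc had 0.76 ± 0.16 in N (unadjusted p = 0.000671, adjusted p = 0.265) and 0.71 ± 0.16 in KP (unadjusted p = 0.00110, adjusted p = 0.458). With N replicate 3 also left out, Myc was called in N polysome mRNA (0.61, adjusted p = 0.0335, with 15% of genes called) and the same 3 members were called in KP (54.9% of genes called; adjusted p = 0.00252 for Myc, 0.00535 for Mga and 0.00309 for Mxd4), while 0% of genes were called in total mRNA of N or KP.

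The lanes bear on these values, since vehicle replicates 1 and 2 and CR-31 replicate 1 of a type shared a lane or run and the other 3 lysates shared another. Within the 2 lanes the log2 difference of Myc was 1.51 and 0.58 in N total, 0.74 and 0.68 in KP total, 0.40 and 0.58 in KP polysome, but 1.41 and -0.37 in N polysome mRNA. Mga in KP polysome mRNA had 0.35 and 0.79. Mxd4 in KP polysome mRNA had -1.31 and -0.06. A run holds 2 lysates of 1 treatment and 1 of the other, so these values mix replicates of unlike level, and within pairs Mxd4 was at 0.613, 0.674 and 0.835 times the vehicle value.

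As labelled, the pairs of CR-31 and vehicle lysates had opposite directions in the 2 organoid types for Mga and Mxd4, as they did for 6.74% of all genes. Mga polysome mRNA was at 17.3, 18.2 and 9.10 CPM in N vehicle and at 14.8, 14.6 and 6.40 CPM in N CR-31, lower in 3 of 3 pairs, and at 9.64, 8.91 and 6.76 CPM in KP vehicle and 11.9, 14.4 and 9.55 CPM in KP CR-31, higher in 3 of 3 pairs. Mxd4, a repressive partner of MAX that is typical of differentiating cells, went from 21.7, 44.9 and 16.5 CPM to 25.7, 46.3 and 32.5 CPM in N and from 19.3, 44.7 and 27.4 CPM to 11.8, 30.1 and 22.9 CPM in KP polysome mRNA. It was higher in 3 of 3 N pairs, but by only 1.19 and 1.03 times in pairs 1 and 2 against 1.97 times in pair 3. The N directions need the labels of pair 3, which with its polysome labels exchanged would have 1.42 in place of 0.703 times for Mga and 0.509 in place of 1.97 times for Mxd4, against the other N pairs. The KP vehicle libraries enter both the lower Mga of KP against N and its higher value with CR-31.

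Tested as the difference between the CR-31 effects in KP and N, 0% of genes were called in polysome or total mRNA, no member had an unadjusted p under 0.05, and DESeq2 called none of the members. Mxd4 had -0.83 ± 0.63 (SE; edgeR adjusted p = 0.999) and Mga 0.81 ± 0.51 (adjusted p = 0.999) in polysome mRNA. With the replicate block the values were -0.93 ± 0.27 (unadjusted p = 0.00628) and 0.84 ± 0.20 (unadjusted p = 0.00226), both with an adjusted p of 0.346, with 0% of genes called in polysome and 0.00874% in total mRNA. Without N replicate 3 as well, Mxd4 (-0.66) and Mga (0.76) were called (adjusted p = 0.0933 for both, 27% of genes called in polysome and 0% in total mRNA). For Myc the difference was 0.19 ± 0.63 in polysome (95% interval -1.19 to 1.57) and -0.09 ± 0.58 in total mRNA (-1.35 to 1.17), so these data do not show whether its response differed between types. With N replicate 3 left out and no block, Mxd4 had -0.62, Mga 0.76 and Myc -0.10 in polysome mRNA, none called.

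Among Max, Mxd1, Mxi1 and Mnt, the fold of CR-31 to vehicle had the narrowest range for Max. The fold of CR-31 to vehicle lay between 0.939 and 1.15 for Max over all pairs and fractions, and the estimates of Max were 0.04 ± 0.21 (SE) in N and 0.00 ± 0.21 in KP polysome mRNA. Mxd1 lay between 0.823 and 1.16 times, and Mxi1 between 0.736 and 1.38 times. Mnt lay between 1.16 and 1.32 times in KP total and between 1.03 and 1.12 times in KP polysome mRNA. In N it lay between 0.830 and 1.12 times in total and between 0.984 and 1.26 times in polysome mRNA. Its estimate in KP total mRNA was 0.29 ± 0.21 on the log2 scale (edgeR unadjusted p = 0.193), beside a median size of 0.15 over all genes. None of these was called in any of the fits of CR-31 given above.

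The third question was how far each mRNA was over- or under-represented on polysomes relative to the other mRNAs. The measure was the polysome level over the total level of the same lysate, each scaled to its own library. Myc was under-represented on polysomes and Mga over-represented. The CPM ratio of Myc was 0.796, 0.798 and 1.10 in N vehicle, 0.742, 0.750 and 0.438 in N CR-31, 0.745, 0.736 and 0.821 in KP vehicle and 0.583, 0.744 and 0.788 in KP CR-31. It was below 1 in 11 of 12 lysates, as were the ratios of Max and Mxi1. Both the highest and the lowest value of Myc came from N replicate 3. For Mga the ratio was 2.31, 4.62 and 1.49 in N vehicle, 2.02, 3.10 and 0.917 in N CR-31, 1.16, 2.32 and 1.09 in KP vehicle and 3.55, 1.92 and 1.65 in KP CR-31.

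On the log2 scale, with the lysate as a block, Myc was lower on polysomes in N CR-31 (-0.71 ± 0.17, SE; edgeR adjusted p = 0.0607), KP vehicle (-0.47 ± 0.17, adjusted p = 0.127) and KP CR-31 (-0.53 ± 0.17, adjusted p = 0.0804), and had -0.20 ± 0.17 in N vehicle (adjusted p = 0.602). Genes called lower made up 4.95% in N vehicle, 8.23% in N CR-31, 13.2% in KP vehicle and 5.49% in KP CR-31. Mga was higher on polysomes in N vehicle (1.30 ± 0.36, adjusted p = 0.0678), N CR-31 (0.83 ± 0.37, adjusted p = 0.247) and KP CR-31 (1.15 ± 0.36, adjusted p = 0.0727), and had 0.42 ± 0.36 in KP vehicle (adjusted p = 0.494). Genes called higher made up 9.08%, 8.51%, 14.4% and 14% in the 4 conditions.

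Max (-0.26 ± 0.12, SE; edgeR adjusted p = 0.234), Mxd1 (-0.29 ± 0.13, adjusted p = 0.197) and Mxi1 (-0.50 ± 0.18, adjusted p = 0.126) were lower on polysomes in KP vehicle, and Mxd4 in KP CR-31 (-0.54 ± 0.23, adjusted p = 0.201). Leaving out single libraries ended the call of Max in 8 of 12 cases, that of Mxd1 in 6, that of Mxi1 in 3 and that of Mga in N CR-31 in 8. It ended the call of Myc in KP vehicle in 3 cases and that of Mxd4 in KP CR-31 in 2. The calls of Myc and Mga in KP CR-31 and of Mga in N vehicle were each lost in 1 case. Without N replicate 3, Myc was called lower in each of the 4 conditions (-0.34, -0.44, -0.43 and -0.55 in N vehicle, N CR-31, KP vehicle and KP CR-31), and Mga higher in all but KP vehicle (1.69, 1.31 and 1.12). The share of all genes called was then 33%, 15%, 47.4% and 40.2%.

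**Figure D5:**
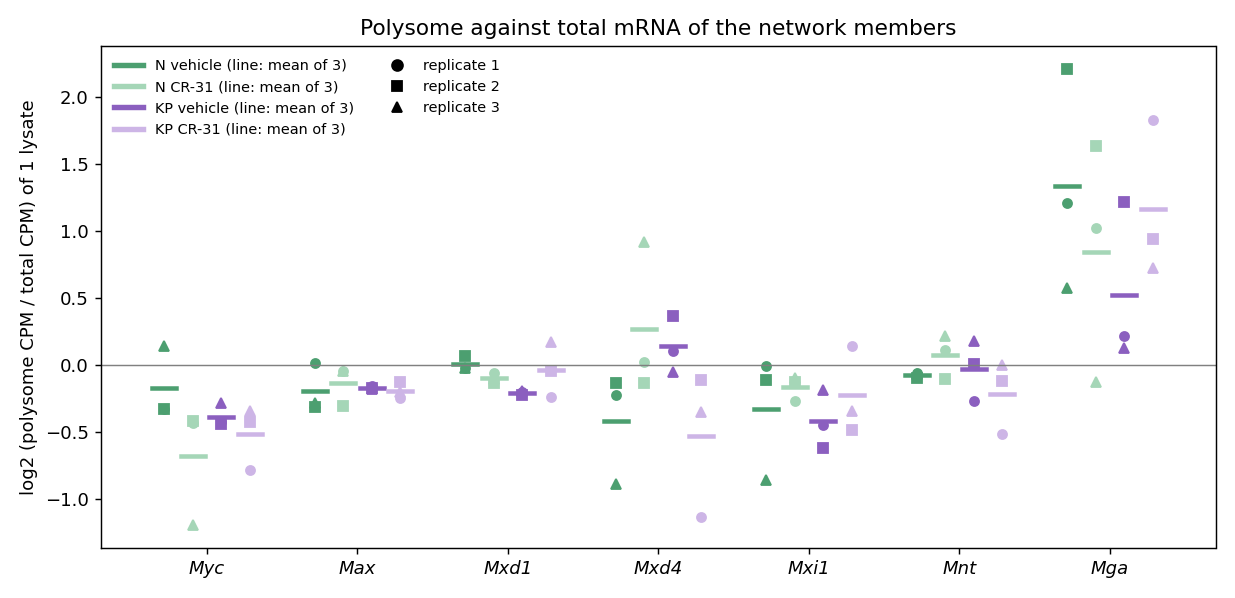
Log2 ratio of polysome to total CPM (y axis) of each member in each lysate, by condition, with one symbol per replicate and a line at the mean of 3. Values are positive (a ratio above 1) for Mga in 11 of 12 lysates. They are negative for Myc in 11 of 12, with N replicate 3 (ratios of 0.438 and 1.10 for Myc) at both ends.

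Changes in translational efficiency, tested as the interaction of fraction and condition, called 0% of genes for KP against N under vehicle or CR-31, for CR-31 in N or KP, and for the difference between them. At an unadjusted p under 0.05 stood 1 member, Mxd4, for KP against N under CR-31 (-0.77 ± 0.32, SE; edgeR adjusted p = 0.754) and for the difference of the CR-31 effects (-1.27 ± 0.46, unadjusted p = 0.0149, adjusted p = 0.418), and 0 members in the other 3 comparisons. DESeq2 called no member, and 3.06% of genes for KP against N under vehicle. The estimates for translational efficiency of Myc with CR-31 were -0.51 ± 0.24 in N (adjusted p = 0.733) and -0.06 ± 0.24 in KP (adjusted p = 0.913), and the N value rested on pair 3, in which the polysome to total ratio fell to 0.397 times the vehicle value, against 0.932 and 0.940 times in pairs 1 and 2. The N value was -0.10 without N replicate 3, and Mxd4 had -0.50 for KP against N under CR-31 and -0.77 for the difference of the effects, neither called. A regression of polysome on total mRNA called 13.6% of genes and no member for KP against N under vehicle, and 0% of genes for CR-31 in KP. With the replicate block it called 24.0% of genes for CR-31 in KP, with Mga as the 1 member (0.56 ± 0.14, adjusted p = 0.123), and 0.0350% of genes in N, with none of the members (Mga had an unadjusted p of 0.0244).

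Within the network, Max had the highest correlation with the mRNA level of Myc over all libraries of a fraction. Pearson's r of log2 CPM with Myc over the 12 polysome libraries was 0.55 for Max, 0.20 for Mnt, 0.12 for Mga, 0.06 for Mxd1, -0.34 for Mxd4 and -0.55 for Mxi1, and over the 12 total libraries 0.42, 0.21, 0.20, 0.21, -0.39 and -0.34 in the same order. After removal of the group means r was 0.80 for Max and 0.92 for Mnt in polysome mRNA, and 0.78 and 0.69 in total mRNA. The libraries share groups, lanes and replicate numbers, so these values are descriptions. Among genes with at least 10 CPM on average, those most like Myc were Nop2 (r = 0.95), Fasn (0.95), Nol6 (0.94), Mid1ip1 (0.93) and Dusp4 (0.93) in polysome mRNA, and Aars (0.97), Nop2 (0.95), Mid1ip1 (0.94), Scaf4 (0.94) and Nup214 (0.94) in total mRNA.

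Around the members, genes whose promoters MYC is known to activate were higher in KP more often than lower. Of 57 such target genes 52 were tested, and in polysome mRNA under vehicle 26 rose and 3 fell in KP against the 20.9% and 22.2% of all genes given above, with a median log2 fold change of 0.54 beside -0.03 over all genes. The highest were Srm, which makes spermidine (1.96 ± 0.28, SE; edgeR adjusted p = 0.00303), Ung, a uracil-DNA glycosylase (1.81 ± 0.20, adjusted p = 0.000653), and the mitotic kinase Plk1 (1.78 ± 0.40, adjusted p = 0.0150). The genes that fell were Hk2, a hexokinase (-1.06 ± 0.46, adjusted p = 0.136), Las1l (-0.59) and Tfb2m (-0.43). In total mRNA 17 rose and none fell, with a median of 0.39, beside 13.1% and 15.4% of all genes and a median of -0.03. Leaving out N replicate 3, 27 rose and 3 fell in polysome mRNA (26.3% and 26.3% of all genes) and 12 rose and none fell in total mRNA (8.91% and 10.4%). In KP polysome mRNA with the replicate block, CR-31 was followed by an increase of Hk2 (1.15 ± 0.27), Utp20 (0.83) and Mcm4 (0.82) and a decrease of 9 target genes, from Exosc5 (-0.61) to Rabepk (-0.34), with a median of -0.15 over the 52 beside -0.02 over all genes, of which 8.30% were called higher and 11.1% lower.

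Of 12 tested cofactors that MYC recruits, Ruvbl2 (0.74 ± 0.27, SE; edgeR adjusted p = 0.0810), Wdr5 (0.56) and Cdk9 (0.47) rose and 1 other gene fell in KP vehicle polysome mRNA, with a median of 0.09. Of all genes 20.9% were called higher and 22.2% lower, and the counts of the lists that follow are to be read beside these shares. Of 11 tested genes of the SIN3 corepressor that MXD proteins and MNT use, Sap30 (1.10 ± 0.28, adjusted p = 0.0250), Suds3 (0.86), Brms1 (0.46) and Ing2 (0.43) rose, Arid4b (-1.21 ± 0.36, adjusted p = 0.0398) and Arid4a (-0.68) fell, and the median was 0.01. Of 11 tested partners of MGA in PRC1.6, E2f6 (0.90 ± 0.22, adjusted p = 0.0193), Tfdp1 (0.69), Wdr5 and Cbx3 (0.40) rose, Rnf2 (-0.58) and Rybp (-0.54) fell, and the median was 0.38. The counts that rose and fell without N replicate 3 were 4 and 2 for the cofactors, 5 and 2 for the corepressor and 5 and 3 for PRC1.6, beside 26.3% of all genes higher and 26.3% lower, with medians of 0.08, 0.30 and 0.35. In total mRNA the counts were 2 and 0, 2 and 0, and 2 and 1 in the same order, with medians of 0.40, 0.20 and 0.09 (13.1% of all genes higher, 15.4% lower), and 0 and 0, 2 and 0, and 2 and 0 with N replicate 3 left out.

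Of 11 tested genes that set the lifetime of MYC protein, 5 rose and 2 fell, with a median of 0.05 over the list (20.9% and 22.2% of all genes). The counts were also 5 and 2 without N replicate 3, with a median of 0.18 (26.3% of all genes higher and 26.3% lower). In total mRNA 4 rose and 1 fell, with a median of 0.33, and 3 and 1 without N replicate 3. Among those that rose were Aurka (1.81 ± 0.33, SE; edgeR adjusted p = 0.00695), a mitotic kinase that shields MYC proteins from degradation, and Plk1 (1.78). Those that fell were Fbxo32 (-2.55 ± 0.68, adjusted p = 0.0293), an F-box protein of ubiquitin ligases, and Gsk3b (-0.76), a kinase that marks MYC for degradation. With the replicate block, CR-31 in KP polysome mRNA was followed by a rise of Huwe1 (0.55) and a fall of 1 other gene in this group, by a rise of Paf1 (0.52), Trrap (0.46) and Hcfc1 (0.45) among the cofactors and a fall of Ring1 (-0.38) in PRC1.6, and in the corepressor group by a rise of Arid4b (0.83), Sin3a (0.68) and Arid4a (0.55) and a fall of Suds3 (-0.56) and Brms1 (-0.38). These counts stand beside 8.30% of all genes called higher and 11.1% lower. Plk1, Wdr5, Cbx3, Hdac1 and Hdac2 each stand in 2 of these lists, so the lists are not independent of one another.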

How the data were processed

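Polysome and total mRNA of 12 lysates were sequenced by the authors, aligned with HISAT2 at default settings, and reads with several matches were discarded. A human build (hg38, GRCh38) is named in the submitters' processing notes, while the deposited genes are mouse RefSeq genes. The authors deposited counts per gene and library without normalization, and RPKM from the same counts. RPKM served for levels per length and was not tested. Strand use in counting is not given in the sources used here. Entries of several symbols (1042 of 19895, 8.69% to 11.5% of reads) were left out of the tests, as were genes with a count of 0 in any library.

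Groups were taken from the sample labels. TMM factors scaled the counts of 11438 genes, and edgeR 4.0.16 (quasi-likelihood, R 4.3.3) tested them in a model of the 4 conditions per fraction. Translational efficiency and polysome against total mRNA were tested in 1 model of 24 libraries with the lysate as a block. P-values were adjusted by Benjamini-Hochberg over all tested genes with a threshold of 0.25. CPM is relative to the TMM-scaled library size, and intervals are at 95%. Scripts were tested on simulated data. DESeq2 1.42.0 and limma 3.58.1 served as alternatives, and figures were drawn with matplotlib 3.10.9 in Python 3.11.15.

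Same-numbered vehicle and CR-31 lysates deviated together from their group means (r of 0.536 to 0.911 in N and 0.364 to 0.873 in KP, above 0.1 for 6 of 6 pairs of libraries in each type), which with the shared number in the labels paired them within a type. Between N and KP the correlations were -0.177 to 0.303, and numbers were not paired.

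All members are named whatever their values. Of each gene list, up to 3 called genes at either end in KP against N (vehicle, polysome) are named, and for likeness the 5 genes with the highest r to Myc. Genes named for CR-31 in the lists, and for the SIN3 and PRC1.6 lists the fourth gene that rose, were chosen after their values were seen. The members and lists were chosen with earlier results of these data known. Certain genes of the lists and 1 allele of the KP mice are not reported here.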

Additional observations from a re-analysis of the deposited data

Results flagged for a closer look

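For Mxd4 polysome mRNA, every pair of lysates was higher with CR-31 in N and lower in KP. The difference of the effects was -0.83 on the log2 scale (edgeR unadjusted p = 0.215, adjusted p = 0.999). Of all genes, 6.74% were split between the types in either direction. Mga polysome mRNA showed the opposite split, lower in every N pair and higher in every KP pair, with a difference of 0.81 (unadjusted p = 0.138, adjusted p = 0.999). The ratio of polysome to total Mxd4 mRNA was likewise higher in every N pair (1.00 to 3.49 times) and lower in every KP pair (0.425 to 0.811 times). The difference was -1.27 (edgeR unadjusted p = 0.0149, adjusted p = 0.418), and for this ratio 10.2% of all genes were split in either direction. These splits rest on the labels of N pair 3. With its polysome labels exchanged that pair would have 0.509 in place of 1.97 times for Mxd4 and 1.42 in place of 0.703 times for Mga, and neither gene would be split. The widest N value of Mxd4, 3.49 times, came from replicate 3, whose libraries went against their labels, and the smallest, 1.00, from replicate 2.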

How the results depend on the processing

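Of 421 alternative counts of members called, 364 stayed within 1.5 times of the main count, and of 832 alternative fold changes of single genes, 737 kept direction and call, 66 lost their call, 15 gained one and 14 changed sign. Other normalizations (RLE, upper quartile, DESeq2) moved the median of all genes by under 0.1. The causes were not tested. A count below with no share of all genes beside it shows only how calls moved between fits.

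At a threshold of 0.05 the count of members called was 0 for KP against N in each fraction and for polysome against total mRNA in each condition. Without a filter on low counts it was 1 for KP against N in vehicle polysome mRNA, 0 in vehicle total mRNA and 0 in CR-31 polysome mRNA, and for polysome against total mRNA 1 in N CR-31 (also 1 with edgeR's filterByExpr) and 2 in KP vehicle. A fit of only the 2 groups compared gave 0 for KP against N in CR-31 polysome mRNA. Without N replicate 3 the count was 0 for KP against N in vehicle total mRNA, 2 in vehicle translational efficiency, and for polysome against total mRNA 2 in N vehicle and 6 in KP CR-31. Without N replicate 1, added after seeing the data, it was 1 for KP against N in CR-31 total mRNA, and for polysome against total mRNA 0 in N CR-31 and 2 in KP vehicle. This setting turned Myc under CR-31 in N polysome mRNA to -0.057 and Mnt in KP against N in CR-31 total mRNA to 0.056.

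With the replicate block 3 members were called for CR-31 in KP polysome mRNA. With the replicate block and without N replicate 3, also added after seeing the data, 3 were called there, 1 in N polysome mRNA and 2 for the difference of the CR-31 effects in polysome mRNA, and Mxd4 under CR-31 in N total mRNA was 0.011 (0.018 without the block). The block changed no other count of members for CR-31 or the difference of its effects in the fits per fraction, and the regression on total mRNA with replicate block called 1 member for CR-31 in KP translational efficiency. For KP against N the block gave 3 members in vehicle polysome, 3 in vehicle total, 3 in CR-31 polysome and 1 in CR-31 total mRNA, beside 7864, 6451, 6657 and 7445 of 11438 genes, and the lane 1, 1, 1 and 0. The blocked regression gave 2 for translational efficiency under vehicle and 2 under CR-31, beside 6367 and 4280 genes. Both terms lie within a type and take the spread between its replicates out of the error, so no call for KP against N rests on them. With the lane as a term, 2 members were called for polysome against total mRNA in KP vehicle. The main fit called 4 there, beside 27.6% of all genes.

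Leaving out each library in turn gave 0 to 2 members for KP against N in vehicle polysome mRNA, 0 to 1 in vehicle total mRNA, in either CR-31 fraction and in vehicle translational efficiency, 0 to 2 for the difference of the CR-31 effects in translational efficiency, and for polysome against total mRNA 0 to 2 in N vehicle, 1 to 2 in N CR-31, 0 to 4 in KP vehicle and 0 to 3 in KP CR-31. The polysome call of Mnt was lost without N vehicle 1, KP vehicle 1 or KP vehicle 3 (adjusted p up to 0.408), its total call without N vehicle 1, N vehicle 3, KP vehicle 1 or KP vehicle 3 (up to 0.421), and the polysome call of Mga without N vehicle 1, N vehicle 2 or KP vehicle 3 (up to 0.322). On polysomes relative to total mRNA, Myc, Mga and Mxd4 in KP CR-31 lost their calls without KP CR-31 replicate 1 (adjusted p of 0.502, 0.552 and 0.803), Mxd4 also without KP CR-31 replicate 3 (0.266), Mga in N vehicle without N vehicle 2 (0.496), Mga in N CR-31 in 8 of 12 cases (up to 0.610), and in KP vehicle Max in 8 (up to 0.557), Mxd1 in 6 (up to 0.536) and Mxi1 in 3 of 12 (up to 0.506), and Myc in KP vehicle without any 1 of its 3 lysates (0.294 to 0.466). Changes of sign occurred for log2 fold changes that were not called. Myc under CR-31 in N polysome mRNA ranged from -0.39 (without N CR-31 replicate 1) to 0.75, Mga in KP against N in vehicle total mRNA from -0.22 to 0.31, Mnt in CR-31 total mRNA from -0.27 to 0.044, Mxd4 and Mga under CR-31 in N total mRNA from -0.72 to 0.15 and from -0.10 to 0.33, and in KP total mRNA from -0.11 to 0.33 and from -0.42 to 0.14.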
